A study of Mus musculus with 6 samples.

Results

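The genes described here are 10 members of the matrix metalloproteinase (MMP) and tissue inhibitor of metalloproteinases (TIMP) families, chosen by symbol as the rows *Mmp2*, *Mmp3*, *Mmp11*, *Mmp13*, *Mmp14*, *Mmp19*, *Timp1*, *Timp2*, *Timp3* and *Timp4* among the 25140 genes of an RNA-seq count table. The table holds 3 vehicle and 3 TGFβ libraries of primary cardiac fibroblasts from adult C57BL/6 mouse hearts at passage 1. Cells of both groups were grown in medium with 25 mM glucose and 10% FBS, kept in 1% FBS from 16 h before treatment, and then given vehicle or 10 ng/ml TGFβ for 24 h. The 16 h are from the labels, and the general methods of the study give 24 h. No allele or other agent separates the groups. The methods of the study also name cardiac fibroblasts and call the samples biological replicates, whereas its results text calls the sequenced cells mouse embryonic fibroblasts. No source states whether the replicates came from separate mice, so p-values measure the spread between these libraries.

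MMPs are zinc-dependent endopeptidases that are secreted, or anchored to the cell surface, as inactive proenzymes and cleave collagens, gelatins, proteoglycans and other matrix proteins once their prodomain is removed. TIMPs bind the active site of MMPs and block it, and TIMP3 also inhibits several ADAM sheddases. In the heart, fibroblasts are a main source of both families, and their balance is known to bear on how much matrix stays in a scar. TGFβ is the growth factor classically used to turn fibroblasts into contractile, matrix-producing myofibroblasts.

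Total counts ranged from 27851677 to 31072338 per library. The table's columns carry the group but no replicate number, so the libraries of a group are called A, B and C in column order, and nothing in the labels ties a letter in one group to the same letter in the other. Expression is given in CPM, that is counts per library after TMM scaling, on a scale common to all 6 libraries. The groups were compared with edgeR's quasi-likelihood test over 14334 genes, which gives the log2 fold change of TGFβ over vehicle (log2FC, printed ± its standard error where both are given), and an adjusted p (Benjamini-Hochberg) under 0.05 counts as a change. Of 7 genes known as TGFβ targets 5 rose, beside 20.5% of all genes tested. *Smad7* (log2FC 0.02, adjusted p = 0.881) and *Tgfbi* (0.19, adjusted p = 0.177) did not pass the test. *Acta2*, the smooth muscle actin of myofibroblasts, went from 1333 ± 144 to 2717 ± 74.0 CPM (mean ± SD, n = 3). All 9 fibroblast markers were expressed, among them *Tcf21*, a transcription factor of cardiac fibroblasts, at 303 ± 3.54 CPM with vehicle. Of these markers 7 were lower with TGFβ and none was higher, while 20.1% of all genes tested were lower. In bulk RNA fewer cells of a type cannot be told apart from less RNA per cell. None of the 6 endothelial, 5 leukocyte, 2 cardiomyocyte and 4 mesothelial markers tested changed, while 1 of 5 smooth muscle and pericyte markers, *Cspg4*, rose. Of the 5 cardiomyocyte markers listed, 4 were below 1 CPM in every library, and *Tnnt2*, cardiac troponin T, had a mean of 46.7 ± 10.5 CPM in the vehicle group and 34.0 ± 6.62 CPM in the TGFβ group.

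Of the 10 genes, 9 passed the filter on low counts and 8 of these 9 changed with TGFβ, beside 40.7% of all genes tested. The 2 genes that rose were *Timp1* and *Timp3*, and 20.5% of all genes tested rose. The 6 that fell were *Mmp2*, *Mmp3*, *Mmp11*, *Mmp13*, *Mmp19* and *Timp2*, and 20.1% of all genes tested fell. *Mmp14* did not pass the test and *Timp4* was too low to be tested. For the same 8 genes the 3 TGFβ libraries lay wholly above or wholly below the 3 vehicle libraries, which held for 53.3% of all genes tested. A log2 fold change beyond 1 in size was seen for 2 of them, *Timp1* and *Mmp3*, against 6.77% of all genes tested. The median size of the log2 fold change was 0.81 over the 9 genes and 0.21 over all genes tested. As the genes were chosen with earlier results of these data known, these comparisons with all genes are descriptions only.

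**Figure D1:**
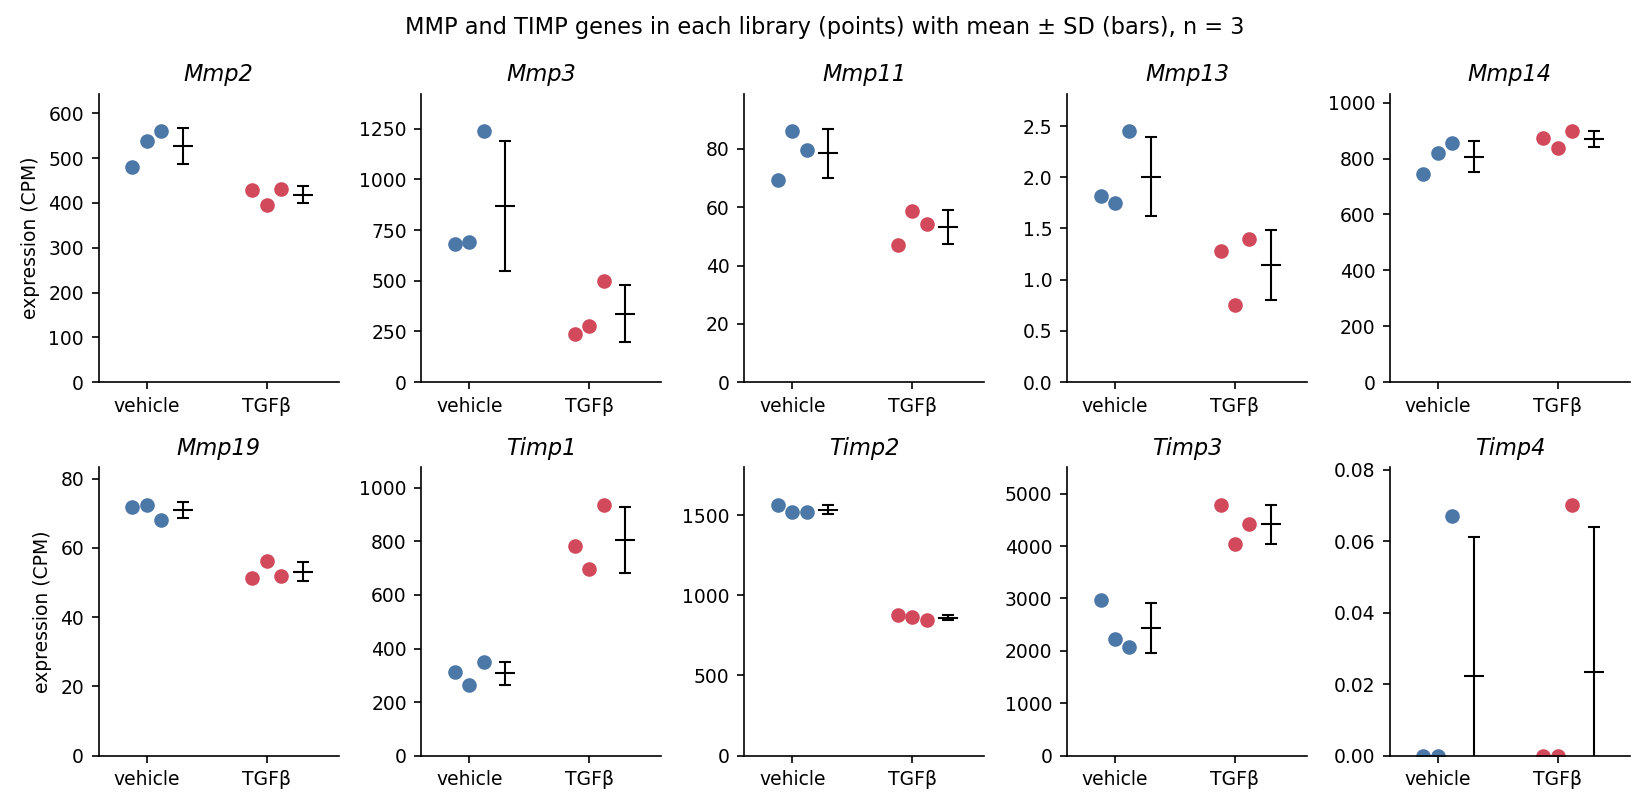
Expression of each of the 10 genes in CPM (vertical axis, linear from 0, own scale in each panel) for the vehicle libraries (blue) and the TGFβ libraries (red). Points are single libraries and the black marks are the mean ± SD (n = 3). The groups are apart for every gene except *Mmp14* and *Timp4*.

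*Mmp3* encodes stromelysin, which cleaves proteoglycans, fibronectin and laminin and activates other proMMPs. The gene spans 7445822 to 7455975 of chromosome 9 (plus strand, GRCm38/mm10 with GENCODE M21, used for all gene positions given). Its counts were 21703, 20449 and 36942 in vehicle libraries A, B and C and 6545, 7709 and 14248 in TGFβ libraries A, B and C. In CPM this was 682, 689 and 1238 with vehicle and 239, 276 and 500 with TGFβ. Library C stood above A and B in either group, and the highest TGFβ library still lay below the lowest vehicle library. The mean fell 2.57-fold, from 870 ± 319 to 338 ± 141 CPM, with a log2FC of -1.36 ± 0.33 (adjusted p = 0.0126). Leaving out 1 library at a time kept the call, with log2 fold changes from -1.76 to -1.02 and a highest adjusted p of 0.0495. The summed endothelial markers were also highest in library C of each group, with 356, 402 and 595 CPM for vehicle and 302, 324 and 460 CPM for TGFβ. The summed leukocyte markers followed the same order, with 238, 249 and 340 CPM for vehicle and 207, 220 and 308 CPM for TGFβ. Their part in the *Mmp3* values was not tested.

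*Mmp13* encodes the main interstitial collagenase of the mouse and lies in the same gene cluster, from 7272514 to 7283331 of chromosome 9 on the plus strand. It was a rare transcript, with 58, 52 and 73 counts for vehicle and 35, 21 and 40 for TGFβ. Each TGFβ library was below each vehicle library. Its mean went from 2.01 ± 0.382 to 1.14 ± 0.346 CPM, a log2FC of -0.81 ± 0.26 (adjusted p = 0.0383). This call was lost when vehicle A (adjusted p = 0.0618), vehicle B (0.0571), vehicle C (0.111), TGFβ A (0.0757) or TGFβ B (0.0967) was left out and stayed only without TGFβ C (0.0345). The log2 fold change stayed negative in those 6 fits, from -0.99 to -0.58.

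The 250 bases before the transcription start of *Mmp3* and *Mmp13* are shown because both genes fell and both windows hold the letters of an AP-1 site and of a TATA box, and that of *Timp1* is shown as a gene that rose without either. They are RefSeq promoters of build GRCm38.p6, at chr9:7445572-7445821, chr9:7272264-7272513 and chrX:20869916-20870165, all on the plus strand. Capitals mark the AP-1 letters TGANTCA and the TATA letters TATAAA.
Mmp3: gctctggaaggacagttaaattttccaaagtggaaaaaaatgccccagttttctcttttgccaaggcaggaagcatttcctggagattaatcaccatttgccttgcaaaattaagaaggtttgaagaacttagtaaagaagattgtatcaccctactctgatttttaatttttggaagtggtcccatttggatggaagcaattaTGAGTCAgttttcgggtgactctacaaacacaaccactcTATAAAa
Mmp13: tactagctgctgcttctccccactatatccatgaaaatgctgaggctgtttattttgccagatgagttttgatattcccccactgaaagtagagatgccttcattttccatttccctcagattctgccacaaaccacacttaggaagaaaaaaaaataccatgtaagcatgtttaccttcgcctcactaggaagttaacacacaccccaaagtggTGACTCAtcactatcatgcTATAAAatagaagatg
Timp1: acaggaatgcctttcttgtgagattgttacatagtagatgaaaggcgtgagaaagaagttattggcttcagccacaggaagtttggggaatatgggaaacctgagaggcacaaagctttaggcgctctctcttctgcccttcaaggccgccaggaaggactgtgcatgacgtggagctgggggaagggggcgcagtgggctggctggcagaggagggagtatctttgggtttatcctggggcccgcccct

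The AP-1 letters began 46 bases before the annotated start of *Mmp3* and 35 bases before that of *Mmp13*, and the TATA letters followed 7 and 16 bases before it. AP-1, a dimer of FOS and JUN proteins, is known as an activator of stromelysin and collagenase genes. Windows were found for 8 of the 10 genes, and *Mmp2* and *Mmp19* had none in the table used. *Mmp3* and *Mmp13* were the only 2 of the 8 with AP-1 or TATA letters, which occur in 6.75% and 12.4% of the 32851 windows of that length (both strands searched). *Mmp11* and *Timp2* thus fell with neither in their windows, both of which lie inside the gene spans. For each of the 8 genes only 1 window was searched, so other starts of a gene were not covered. The letters of the PEA3 site for ETS factors, AGGAAG, were in the windows of *Mmp3*, *Mmp13*, *Mmp14*, *Timp1*, *Timp3* and *Timp4* and in 29.5% of all windows. The RUNX letters TGTGGT were in those of *Mmp13* and *Mmp14* and in 14% of all. The Sp1 letters GGGCGG were in those of *Mmp11*, *Mmp14*, *Timp1*, *Timp2* and *Timp3* and in 32.7% of all. The SMAD palindrome GTCTAGAC and the TGFβ inhibitory element, known from the stromelysin promoter, were in none of the 8, and in 0.167% and 0.791% of all windows. Sites further upstream than the 250 bases searched, or with letters other than those searched, could not be found. Their absence here does not show that a promoter lacks them. GC content was 37.6% and 40.4% in the windows of *Mmp3* and *Mmp13* and between 53.6% and 68% in the other 6. A match is a run of letters and was not tested for binding.

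*Mmp2*, *Mmp14* and *Timp2* encode the parts of an activation complex at the cell surface. MMP14 is a membrane-anchored collagenase, TIMP2 bound to it acts as the receptor for the proenzyme of MMP2, a gelatinase, and a free MMP14 then cleaves the prodomain. *Mmp2* (chromosome 8, 92827291 to 92853420, plus strand) had 15307, 15992 and 16696 counts with vehicle and 11727, 11047 and 12274 with TGFβ. Each TGFβ library was lower than each vehicle library, although the change was small. The mean went from 527 ± 40.8 to 418 ± 19.7 CPM, a log2FC of -0.33 ± 0.07 (adjusted p = 0.00576).

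*Mmp14* (chromosome 14, 54431612 to 54445364, plus strand) had 23755, 24288 and 25465 counts with vehicle and 23910, 23406 and 25609 with TGFβ. In CPM the groups overlapped, at 746, 819 and 854 with vehicle and 874, 838 and 898 with TGFβ. The log2FC was 0.11 ± 0.06 (adjusted p = 0.191), and it stood between 0.06 and 0.15 when a library was left out. An exact permutation test of CPM (two-sided) gave p = 0.2, where 3 libraries against 3 cannot go below 0.1. Each of the called members gave p = 0.1 in that permutation test, so it could separate none of them at 0.05.

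*Timp2* (chromosome 11, 118301069 to 118355740, minus strand) had 49800, 45117 and 45243 counts with vehicle and 23988, 24073 and 24092 with TGFβ. Replicates of a group lay close together, at 1565, 1521 and 1517 CPM with vehicle and 877, 862 and 845 CPM with TGFβ. The mean fell 1.78-fold, with a log2FC of -0.83 ± 0.04 and an adjusted p of 1.36e-05, the smallest among the 9 genes tested. Per length, in TPM (counts over merged exon length, scaled to the same sum in every library), the ratio of *Timp2* to *Mmp14* was 3.21, 2.84 and 2.72 with vehicle and 1.53, 1.57 and 1.44 with TGFβ. The ratio of *Mmp2* to *Mmp14* was 1.14, 1.16 and 1.16 with vehicle and 0.867, 0.834 and 0.847 with TGFβ. Both ratios depend on the gene length used, since *Mmp14* has 5960 bases of merged exons but 3238 in its longest transcript. With the longest transcript, *Timp2* to *Mmp14* was 1.83, 1.62 and 1.55 with vehicle and 0.876, 0.898 and 0.821 with TGFβ, and *Mmp2* to *Mmp14* was 0.678, 0.693 and 0.690 with vehicle and 0.516, 0.497 and 0.504 with TGFβ. Under either length every TGFβ library lay below every vehicle library in both ratios. Which of the 2 genes was higher changed with the length only with TGFβ for *Timp2* and *Mmp14*. For *Mmp2* and *Mmp14* it changed only with vehicle. These are mRNA levels, and neither protein nor activity was measured.

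*Mmp11* encodes a stromelysin-type enzyme that is activated by furin inside the cell and is known from stroma around tumours. It spans 75923222 to 75936496 of chromosome 10 (minus strand). Its counts were 2212, 2554 and 2379 with vehicle and 1285, 1637 and 1548 with TGFβ, with no overlap in CPM. The log2FC was -0.56 ± 0.10 (adjusted p = 0.00334). *Mmp19*, a secreted MMP of many tissues, spans 128790910 to 128800824 of the same chromosome (plus strand). Its counts were 2285, 2149 and 2034 with vehicle and 1400, 1571 and 1482 with TGFβ. The mean fell 1.33-fold, from 70.8 ± 2.30 to 53.1 ± 2.73 CPM (log2FC -0.41 ± 0.05, adjusted p = 5.04e-04). Both genes share exon sequence with a gene on the opposite strand, *Mmp11* over 155 bases with *Chchd10* and *Mmp19* over 789 bases with *Tmem198b*. *Tmem198b* had 33.2% as many counts as *Mmp19* and rose (log2FC 0.34, adjusted p = 0.00851), and *Chchd10* had 10.6% as many as *Mmp11* (log2FC 0.45, adjusted p = 0.0598). The library kit keeps strand, but whether the counting used it is not stated.

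*Timp1* encodes a secreted inhibitor that is known to be induced in fibrosis and that also binds the proenzyme of MMP9. It spans 20870166 to 20874735 of chromosome X (plus strand). Its counts were 9905, 7816 and 10429 with vehicle and 21460, 19401 and 26720 with TGFβ. Every TGFβ library was above every vehicle library by a wide gap, 695 to 937 CPM against 264 to 350 CPM. The mean rose 2.61-fold, with a log2FC of 1.39 ± 0.13 (adjusted p = 1.79e-04). *Xist*, the transcript of the inactive X chromosome, had 1 count over the 6 libraries.

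*Timp3* encodes the inhibitor that stays bound to the matrix. It spans 86300372 to 86349506 of chromosome 10 (plus strand). It had 94583, 66122 and 62140 counts with vehicle and 131067, 113034 and 125796 with TGFβ, the highest counts of the 10 genes. Vehicle A stood above the other vehicle libraries, at 2972 CPM against 2229 and 2083, and below all 3 TGFβ libraries, at 4791, 4048 and 4413. The mean rose 1.82-fold (log2FC 0.86 ± 0.14, adjusted p = 0.00184), and without 1 library the log2 fold change lay between 0.76 and 1.03. *Timp3* was highest in library A of either group. So were the summed mesothelial markers, at 62.2, 23.0 and 27.3 CPM with vehicle and 34.2, 14.8 and 16.9 CPM with TGFβ. The summed cardiomyocyte markers were too, at 59.5, 38.4 and 45.8 CPM with vehicle and 40.2, 27.2 and 36.6 CPM with TGFβ. This second sum is nearly all *Tnnt2*, at 58.3, 37.6 and 44.4 CPM with vehicle and 39.5, 26.6 and 35.9 CPM with TGFβ. The other 4 cardiomyocyte markers were below 1 CPM in every library and did not all follow that order. The part of either sum in the *Timp3* values was not tested. *Timp4*, known as the TIMP most abundant in whole heart, was at 0, 0 and 2 counts for vehicle and likewise at 0, 0 and 2 for TGFβ. The exact 95% Poisson interval of each sum of 2 is 0.242 to 7.22 counts and covers counting error only, so no fold is given. The gene spans 115241892 to 115252205 of chromosome 6 (minus strand).

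Each of these 3 TIMP genes lies inside a synapsin gene on the opposite strand, an old arrangement of both families. *Timp1* sits in *Syn1*, *Timp3* in *Syn3* and *Timp4* in *Syn2*, where synapsins are proteins of synaptic vesicles. The hosts were nearly silent. *Syn1* had 78 to 105 counts with vehicle and 95 to 110 with TGFβ (log2FC 0.36, adjusted p = 0.0678). *Syn3* had 58, 36 and 13 counts with vehicle and 51, 57 and 117 with TGFβ (log2FC 1.20, adjusted p = 0.0831), and its total over the 6 libraries was 332 counts against 592742 of *Timp3*. *Syn3* shares 1733 exon bases with *Timp3*, so its few reads cannot be told apart from *Timp3* reads without strand. *Syn2* had 76 to 97 counts with vehicle and 101 to 132 with TGFβ (log2FC 0.54, adjusted p = 0.0168). That call was lost without vehicle C, TGFβ B or TGFβ C, with an adjusted p of up to 0.0545. Around the 10 loci, the 2 nearest tested genes on each side, leaving out MMP and TIMP genes, came to 34 genes. Of these 8 rose and 5 fell, beside 20.5% and 20.1% of all genes tested.

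Compared per length, over merged exons, 4 of the 10 genes were among the top 100 of 25086 genes by mean TPM over the 6 libraries, and 2 with the longest transcript as length. Over merged exons the order with vehicle was *Mmp3* (1954 TPM), *Timp2* (1596), *Timp1* (1405) and *Timp3* (1209), and the ranges of neighbours in this order overlapped. *Mmp2* (633 TPM), *Mmp14* (548), *Mmp11* (114), *Mmp19* (81.2) and *Mmp13* (3.04) followed, each apart from the next. With TGFβ the order by the same length was *Timp1* (3511 TPM), *Timp3* (2098), *Timp2* (854), *Mmp3* (727), *Mmp14* (564), *Mmp2* (480), *Mmp11* (74.0), *Mmp19* (58.1) and *Mmp13* (1.66). Only the ranges of *Timp2* and *Mmp3* and of *Mmp3* and *Mmp14* overlapped there. With the longest transcript, which shortens *Timp3* from 8144 to 4722 bases, *Timp3* came first in both groups by mean, at 1582 TPM with vehicle beside *Mmp3* at 1483 and at 2751 TPM with TGFβ beside *Timp1* at 2683, with overlapping ranges in either pair. *Mmp14* then stood above *Mmp2* in both groups and above *Timp2* with TGFβ (790 and 682 TPM). The place of *Timp3*, *Mmp14* and their neighbours is thus not fixed by these data.

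The 4 TIMP genes made up 61.7%, 56.8% and 49.8% of the summed TPM of the 10 genes in vehicle libraries A, B and C. In the TGFβ libraries they made up 79.5%, 77.0% and 75.4%. Every TGFβ library was above every vehicle library, with a difference between the means of 21.2 percentage points. The summed TPM of the 6 MMP genes was 3334 ± 759 with vehicle and 1905 ± 352 with TGFβ, and that of the TIMP genes was 4210 ± 314 and 6463 ± 760. *Mmp3* alone went from 25.5 ± 6.53% to 8.54 ± 2.72% of the sum and *Timp1* from 18.6 ± 0.955% to 41.8 ± 1.91%. Without *Timp1* the difference in the TIMP share was 14.8 points (46.1 ± 7.31% and 60.9 ± 4.41%). The summed TPM of the remaining TIMP genes was then 2805 ± 275 with vehicle and 2952 ± 255 with TGFβ, and the libraries of the groups overlapped. The ratio of *Timp1* to *Timp2* was 0.873, 0.760 and 1.01 with vehicle and 3.93, 3.54 and 4.87 with TGFβ. As the genes were chosen with these results known, the share is a description and no test was run on it.

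**Figure D2:**
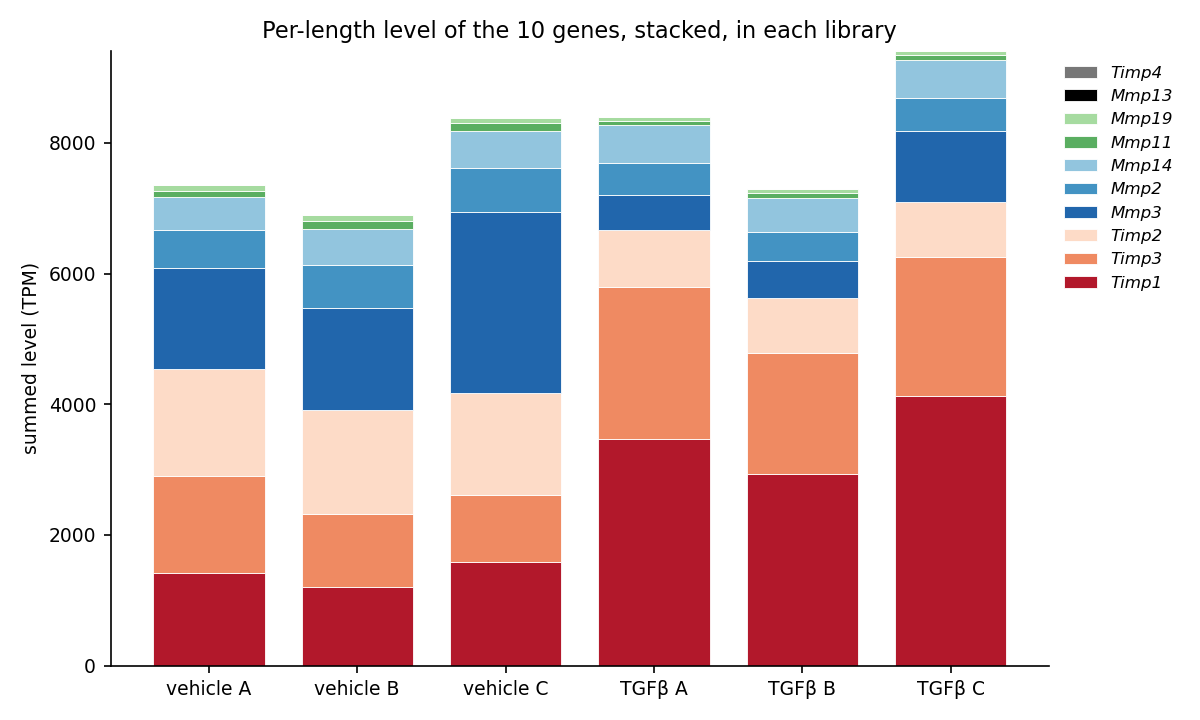
Level of each of the 10 genes per merged exon length in TPM (vertical axis, stacked from 0) in the 6 libraries, with TIMP genes in red shades and MMP genes in blue and green. In each TGFβ library the red part, 75.4% to 79.5% of the bar, is larger than in any vehicle library, and *Timp1* is the tallest segment with the merged exon lengths plotted (with the longest transcript *Timp3* and *Timp1* overlap).

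The other MMP genes were read in the same fit. Of 17 listed, 14 were in the table and 11 were tested, of which 1 rose, 6 fell and 4 did not pass. With the members, 1 of 17 MMP genes tested rose and 11 fell, beside 20.5% and 20.1% of all genes tested. The gene that rose, *Mmp10*, encodes the stromelysin most like that of *Mmp3*. It had 12, 8 and 13 counts with vehicle and 56, 62 and 78 with TGFβ, a log2FC of 2.68 ± 0.23 (adjusted p = 1.18e-04). Even then it reached only 2.33 ± 0.358 CPM. The pair shares 3.94% of the 75-base windows of *Mmp10* and 3.76% of those of *Mmp3*, and the pair moved in opposite directions.

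Among those that fell, *Mmp27* had 64, 80 and 97 counts with vehicle and 24, 27 and 22 with TGFβ (log2FC -1.60, adjusted p = 0.00114). *Mmp12*, the metalloelastase known from macrophages, went from 48.1 ± 7.57 to 22.1 ± 2.32 CPM (log2FC -1.12, adjusted p = 3.86e-04). *Mmp17*, a membrane-anchored MMP, went from 23.9 ± 3.19 to 13.4 ± 1.39 CPM (log2FC -0.83, adjusted p = 0.00102). These calls, and that of *Mmp10*, held with each library left out. *Mmp8*, the neutrophil collagenase, had 348, 306 and 534 counts with vehicle and 132, 144 and 272 with TGFβ, or 13.1 ± 4.21 and 6.51 ± 2.63 CPM (adjusted p = 0.0318). Like *Mmp3*, it was highest in library C of each group. *Mmp9*, the second gelatinase, had 104, 176 and 209 counts with vehicle and 50, 82 and 97 with TGFβ, with overlapping groups (log2FC -0.98, adjusted p = 0.0397). *Mmp28* had 241, 291 and 208 counts with vehicle and 159, 176 and 148 with TGFβ (log2FC -0.49, adjusted p = 0.0294). These 3 calls were lost in some fits with a library left out. For *Mmp8* this was so without vehicle C, TGFβ A or TGFβ B (adjusted p up to 0.111), for *Mmp9* without vehicle B, vehicle C, TGFβ A or TGFβ B (up to 0.123), and for *Mmp28* without vehicle B, TGFβ A or TGFβ C (up to 0.0785). *Mmp16* (log2FC 0.30), *Mmp15* (-0.15), *Mmp1b* (0.14) and *Mmp23* (-0.03) did not pass the test, with adjusted p from 0.305 to 0.753. Several of these enzymes are known from leukocytes, whose 5 tested markers had a median log2 fold change of -0.13 with none called. Whether leukocytes bear on these values was not tested.

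**Figure D3:**
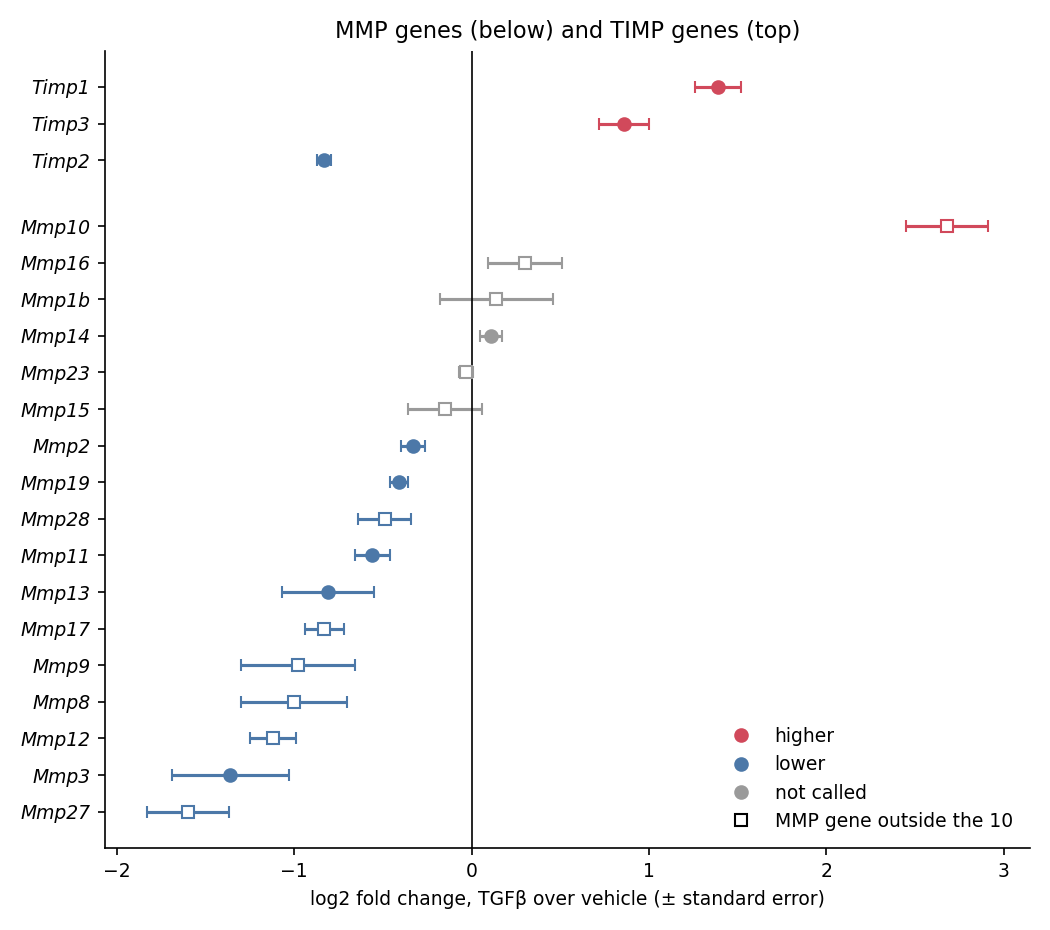
Log2 fold change of TGFβ over vehicle (horizontal axis, ± standard error, n = 3 against 3) for the 17 MMP genes tested and, at the top, the 3 TIMP genes tested. Filled circles are the genes chosen here, open squares other MMP genes, and colour gives the call. *Mmp10* at 2.68 stands apart from the 11 MMP genes that fell, while *Timp2* lies opposite to *Timp1* and *Timp3*.

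*Mmp3* and *Mmp13* belong to a cluster of MMP genes on chromosome 9. Of this cluster 8 genes were counted, over 309.4 kb, in the order *Mmp13*, *Mmp12*, *Mmp1b*, *Mmp3*, *Mmp1a*, *Mmp10*, *Mmp8* and *Mmp27*. *Mmp7* and *Mmp20*, whose starts lie beyond *Mmp27*, were not among the genes counted. Of the 7 tested, 5 fell, 1 rose and *Mmp1b* did not pass, where 20.1% of all genes tested fell and 20.5% rose. *Mmp1b* had 113 counts over all libraries and shares 157 exon bases with *Mmp12*, on the opposite strand with 6225 counts. Reads from that stretch cannot be told apart without strand. *Mmp1a* had 1 count with vehicle and 2 with TGFβ over the group. The calls of *Mmp13* and *Mmp8* were lost in some fits with a library left out. *Mmp10* thus rose between *Mmp3* and *Mmp8*, the nearest tested genes of the cluster on either side, which fell. Its window is shown because it holds the same AP-1 and TATA letters as that of *Mmp3* (capitals, RefSeq, GRCm38.p6, chr9:7502092-7502341, plus strand), beginning 63 and 29 bases before the start.
Mmp10: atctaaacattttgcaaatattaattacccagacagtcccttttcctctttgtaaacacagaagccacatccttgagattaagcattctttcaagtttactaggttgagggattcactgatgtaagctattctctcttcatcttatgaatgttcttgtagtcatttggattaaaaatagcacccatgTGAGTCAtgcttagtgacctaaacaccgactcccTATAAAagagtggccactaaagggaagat
AP-1 letters were also in the windows of *Mmp1a*, *Mmp1b* and 1 of the 2 starts of *Mmp12*, and in none of those of *Mmp8* and *Mmp27*, which fell. They were in the windows of *Mmp20* and 1 of the 2 starts of *Mmp7* too, genes without counts. In this cluster the letters occurred with a rise, with falls and with no call.

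**Figure D4:**
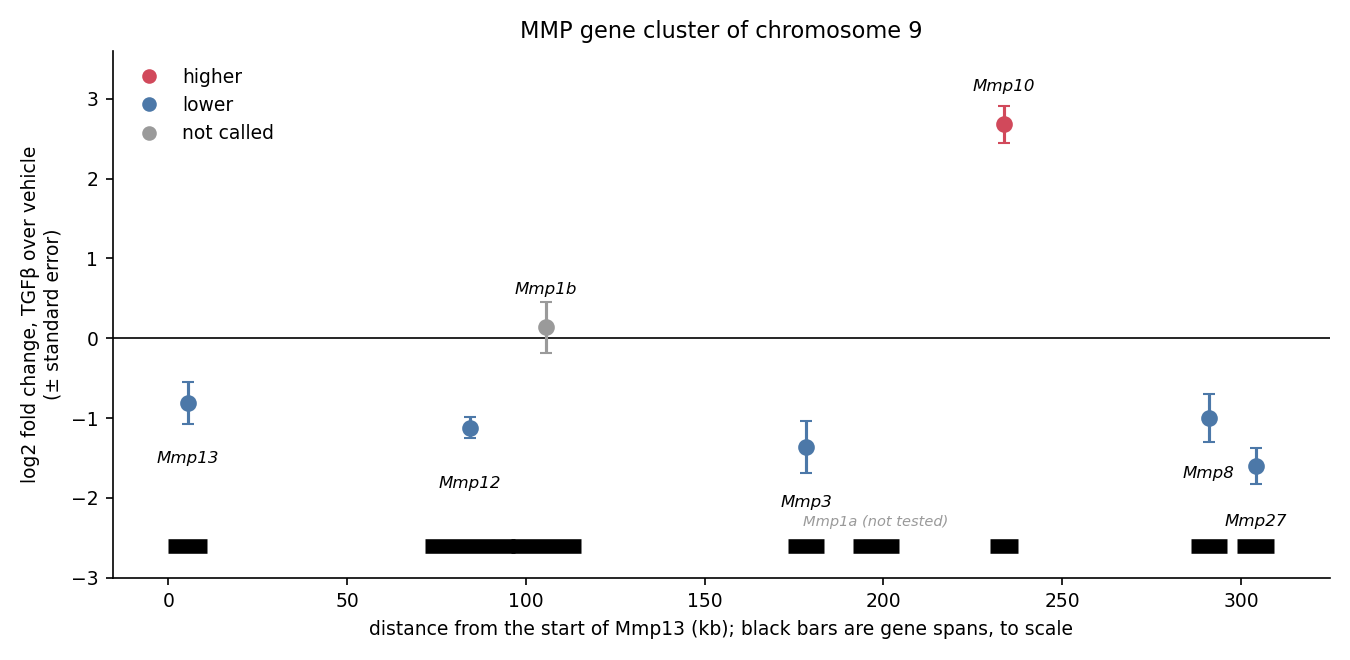
Log2 fold change of TGFβ over vehicle (vertical axis, ± standard error) for the counted MMP genes of the chromosome 9 cluster. Genes are placed by distance from the start of *Mmp13* in kb (horizontal axis), with black bars as gene spans to scale. Of the 7 genes tested 5 lie below 0 (blue), *Mmp10* lies at 2.68 (red) and *Mmp1b* was not called (grey). The calls of *Mmp13* and *Mmp8* were lost in some fits with a library left out.

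Genes that activate proMMPs moved in both directions. Of 7 tested, 3 rose, 1 fell and 3 did not pass, with a median log2 fold change of 0.03. For this and the lists that follow, 20.5% of all genes tested rose and 20.1% fell. *Furin*, the convertase that cleaves the prodomain of MMP14 and MMP11, rose from 194 ± 5.26 to 271 ± 18.6 CPM (log2FC 0.49, adjusted p = 4.53e-04). *Plat*, the tissue plasminogen activator, fell from 111 ± 1.47 to 68.7 ± 2.03 CPM (log2FC -0.69, adjusted p = 1.58e-05). *Plaur*, the urokinase receptor (log2FC 0.76, adjusted p = 0.0289), and the convertase *Pcsk5* (0.67, adjusted p = 0.0287) rose with less firm calls. *Plaur* lost its call without vehicle A, vehicle B, TGFβ A or TGFβ C (adjusted p up to 0.0870) and *Pcsk5* without any 1 vehicle library (up to 0.0866).

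Of 8 genes tested in the list of other inhibitors and clearance genes, 2 rose, 3 fell and 3 did not pass (median log2FC -0.10). Among those that did not pass is *Bsg*, which is not an inhibitor or clearance gene. *Tfpi2*, a serine protease inhibitor of the matrix, rose to 38.5 ± 8.95 CPM with TGFβ (log2FC 1.68, adjusted p = 4.20e-04). *Reck*, the membrane-anchored inhibitor of MMPs, fell from 106 ± 11.9 to 66.4 ± 4.22 CPM (-0.67, adjusted p = 6.63e-04), and *A2m*, a broad protease trap, fell too (-1.30, adjusted p = 0.00918). *Reck* thus fell, as did *Timp2*, while *Timp1* and *Timp3* rose. Of 7 ADAM sheddases tested, only some of which TIMPs can block, 2 rose and 3 fell. *Adam17* (-0.50, adjusted p = 5.31e-04) and *Adam9* (-0.42, adjusted p = 5.14e-04) fell, and *Adam19* (0.30, adjusted p = 0.0125) and *Adam10* (0.23, adjusted p = 0.0160) rose, the last with a call lost without vehicle C, TGFβ A or TGFβ B (adjusted p up to 0.0551).

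Among 6 other proteins that break down collagen, *Fap*, a fibroblast surface protease, fell (log2FC -1.28, adjusted p = 0.00813), as did the cathepsin gene *Ctsb* (-0.40, adjusted p = 0.0249), and 4 did not pass. *Ctsb* lost its call without vehicle C, TGFβ A or TGFβ B (adjusted p up to 0.0928). Of 10 matrix substrates 2 rose, 2 fell and 6 did not pass. *Eln*, elastin, rose (0.97, adjusted p = 0.0168, lost without vehicle B at 0.0550) and *Col5a1* rose slightly (0.29, adjusted p = 0.00300), while *Col3a1* (-0.94, adjusted p = 0.00104) and *Dcn*, decorin (-0.52, adjusted p = 0.00570), fell.

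Of 11 transcription factors tested that are known to bind MMP promoters, 6 fell, 2 rose and 3 did not pass (median log2FC -0.30). Among all genes tested 20.1% fell and 20.5% rose. *Fos* fell from 188 ± 25.8 to 61.9 ± 12.7 CPM (log2FC -1.60, adjusted p = 1.66e-04) and *Fosb* from 30.4 ± 0.980 to 8.96 ± 1.79 CPM (-1.76, adjusted p = 4.74e-05). *Junb* fell by less (-0.59, adjusted p = 3.86e-04), and *Runx1*, a partner of AP-1 at some of these promoters, rose (0.60, adjusted p = 7.80e-04). Whether these levels bear on the MMP values was not tested.

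**Figure D5:**
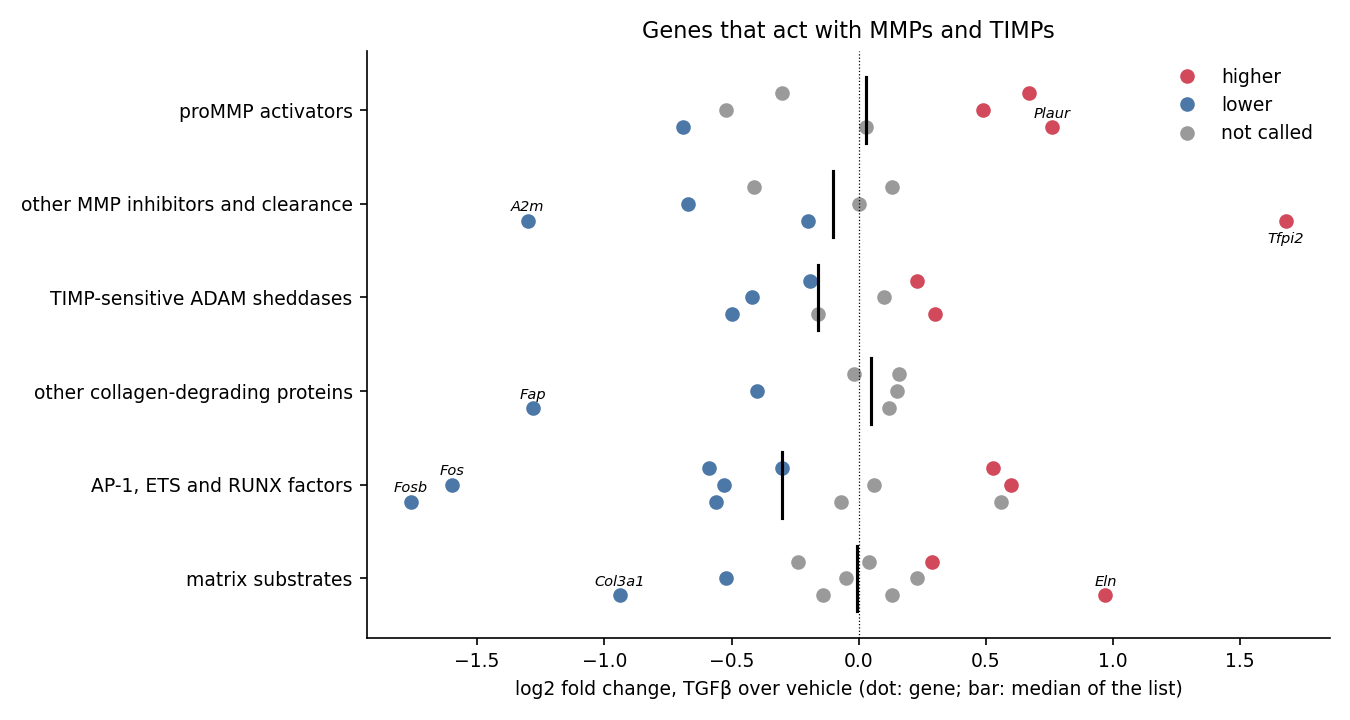
Log2 fold change of TGFβ over vehicle (horizontal axis) for genes that act with MMPs and TIMPs, 1 row per list, where each dot is a tested gene coloured by its call and the black bar is the median of the list. Genes beyond 0.75 in size are named, and 1 inhibitor gene is not drawn. The row label TIMP-sensitive applies to only some of the ADAM sheddases, and the row of other inhibitors and clearance also holds *Bsg*, which is neither. The medians lie between -0.30 and 0.05, and most lists hold genes that rose and genes that fell.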

How the data were processed

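RNA was measured in 6 libraries. Per the labels and the study's methods, the authors enriched polyadenylated RNA, built libraries with a kit that keeps strand, read 75 bases from 1 end of each fragment, used the build mm10 and ran DESeq2. The aligner, the counter and its strand setting are not given in the sources used here. The deposited table holds the authors' whole-number counts of reads per gene without normalization, and these were used. Its columns of the authors' own comparison (a mean, a fold change and p-values) were not used.

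The counts were filtered (filterByExpr), scaled (TMM, CPM) and tested with the quasi-likelihood test of edgeR 4.0.16 (R 4.3.3) over all 14334 genes tested, with no covariate. The standard error is the fold change over the square root of F. The common biological coefficient of variation was 7.97%, and at 27851677 to 31072338 counts per library counting error was small beside it for all members except *Mmp13* and *Timp4*. Replicates differed by more than sampling noise (chi-square per gene 7.41 to 25.0). TPM used merged exon lengths of GENCODE M21, which matched 25086 of 25140 genes. Single genes were also compared with an exact permutation test of CPM (scipy 1.17.1, Python 3.11.15). Promoter letters were searched in RefSeq sequence of GRCm38.p6. The steps were tested on simulated counts.

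The members, the lists and the motifs were chosen with earlier results of these data known. Named were all members, other MMP genes with at least 1 CPM in 3 libraries or past the threshold, up to 4 genes past the threshold with the largest changes of each other list, and the synapsin hosts, with markers as sums and counts. The values of 1 gene that this rule takes in are not reported here. *Mmp1a*, *Mmp1b*, *Tnnt2*, *Acta2*, *Tcf21*, *Cspg4*, *Xist*, *Bsg*, *Chchd10* and *Tmem198b* were named after their values were seen. So were *Mmp24*, *Mmp25*, *Smad7*, *Tgfbi*, *Eif2s3y*, *Kdm5d* and *Uty*. *Mmp7* and *Mmp20*, which have no counts, were named for their place on chromosome 9. Alternatives were DESeq2 size factors or upper quartile scaling in edgeR, DESeq2 1.42.0, limma-voom (limma 3.58.1), no filter, 1 CPM in 3 libraries, each library left out, a threshold of 0.01, a minimum log2 fold change of 1 in size, and the longest transcript as gene length, which for ratios and the order of levels was added after seeing the data.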

Additional observations from a re-analysis of the deposited data

How the results depend on the processing

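The 8 called members kept their call and direction under DESeq2 size factors, upper quartile scaling, DESeq2, limma-voom, no filter on low counts and a filter of 1 CPM in 3 libraries, and *Mmp14* passed under none of these. With each library left out in turn, 7 to 8 members were called, and *Mmp13*, with a log2 fold change from -0.99 to -0.58, was the one lost. In the same fits 4489 to 5481 genes were called in all, against 5828 with all 6 libraries. No called change reversed direction, and in none of these 12 fits was a gene called in the opposite direction. Whether *Timp2* or *Mmp2* stood above *Mmp14* per length did depend on the gene length used. No paired analysis was possible because the count columns carry no replicate number.

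At an adjusted p of 0.01, 3595 genes were called in all, and *Mmp3* (-1.36) and *Mmp13* (-0.81) no longer passed. Called genes were then 4 of the other MMP genes, 2 proMMP activators, 3 ADAM sheddases, 1 collagen-degrading protein and 0 synapsin genes. With a log2 fold change beyond 1 as well as an adjusted p under 0.05, 971 genes were called, and of the members 2 remained. *Mmp2* (-0.33), *Mmp11* (-0.56), *Mmp13* (-0.81), *Mmp19* (-0.41), *Timp2* (-0.83) and *Timp3* (0.86) did not reach that size. Called genes were then 3 of the other MMP genes, 0 proMMP activators, 3 other inhibitors, 0 ADAM sheddases, 1 collagen-degrading protein, 2 transcription factors, 0 matrix substrates and 0 synapsin genes. Both rules call fewer genes by construction.

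With each library left out, called genes ranged from 4 to 7 for the other MMP genes (4 without TGFβ A), from 2 to 4 for proMMP activators (2 without vehicle A or vehicle B), from 1 to 2 for collagen-degrading proteins and from 0 to 3 for synapsin genes. Over all genes, 4489 to 5481 were called in those fits, against 5828 with all 6 libraries. DESeq2 called 2 synapsin genes, as did edgeR without a filter on low counts, against 1 in the report, and the cause was not tested. Without that filter 8 of the other MMP genes were called, 2 higher and 6 lower. In the report it was 7, with 1 higher and 6 lower. The TIMP share of the summed TPM was 14.8 points higher with TGFβ without *Timp1*, 19.4 points with the longest transcript as gene length and 18.1 to 24.0 points with a library left out, against 21.2 points. With the longest transcript the mean TPM ratio of *Timp2* to *Mmp14* was 1.67 with vehicle and 0.865 with TGFβ, against 2.92 and 1.52 over merged exons. *Timp4*, *Mmp1a*, *Mmp24* and *Mmp25* had too few counts for the main test. *Mmp25* had 1, 2 and 5 counts with vehicle and 7, 8 and 10 with TGFβ.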
